A study of Populus tomentosa with 15 samples.

Results

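The 62 genes described here were chosen from the transcriptomes of *Populus tomentosa* suspension cells because their level was low in the *PtomtAPX*-antisense line *anti-3* and closer to that of the wild type (WT) in the other groups. The measure was the mean log2(FPKM + 1) of a group minus that of WT, where FPKM is the number of fragments scaled to gene length and library total. A gene was a member when this difference was below -1.25 in *anti-3*, within 0.75 in *OX*, and within 1 in *anti-3*-A and in *OX*-H. POPTR_0545s00210, a UDP-glycosyltransferase gene that also met these limits, was left out by the rule. The table held 42635 features, of which 24694 were tested, and all 62 members were among those tested.

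All libraries came from cells in the dark on day 5 after subculture, with 3 libraries per group and 15 in all. *anti-3* is 1 line carrying an antisense copy of *PtomtAPX*, and *anti-3*-A is the same line given 1 mM ascorbate (AsA) for 3 h. *OX* cells overexpressed *PtomtAPX* from the 35S promoter, and *OX*-H is *OX* given 10 mM H2O2 for 3 h. The growth of *OX* cells is described in the paper as needing added 6-BA, a cytokinin. WT cells given AsA or H2O2, and cells given a mock treatment, were not analysed here, so that the added compound and the handling cannot be told apart. The labels do not say whether the libraries of a group came from separate cultures, and the p-values measure the spread between these libraries, which may be technical.

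Ascorbate peroxidase (APX) uses ascorbate to reduce H2O2 to water, and the ascorbate-glutathione cycle then regenerates the ascorbate. *PtomtAPX* encodes the mitochondrial form of the enzyme, and mitochondria are a main source of H2O2 in plant cells that do not photosynthesise. H2O2 is toxic at high levels and acts as a signal to nuclear genes at lower ones. The level of *PtomtAPX* itself was not analysed here, since the identifiers of the table are not paired with that name.

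Library totals, worked back from the FPKM values, were 15618191 to 21278437 reads, and no library stood apart in the members. The median difference of the members from the WT mean was -1.38 to -1.37 in the 3 *anti-3* libraries, -0.62 to -0.51 in the *OX* libraries, -0.13 to -0.04 in the *anti-3*-A libraries and 0.48 to 0.54 in the *OX*-H libraries. The members had 3 to 161478 reads per library (median 332), and 59 of them had at least 20 reads in every library. The median of all genes tested was itself off WT by -0.26 in *anti-3*, -0.18 in *OX*, 0.02 in *anti-3*-A and -0.11 in *OX*-H, and relative to it the members' medians were -1.09, -0.36, -0.13 and 0.63. In bulk samples like these, fewer cells of a type and less RNA per cell cannot be told apart.

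**Figure D1:**
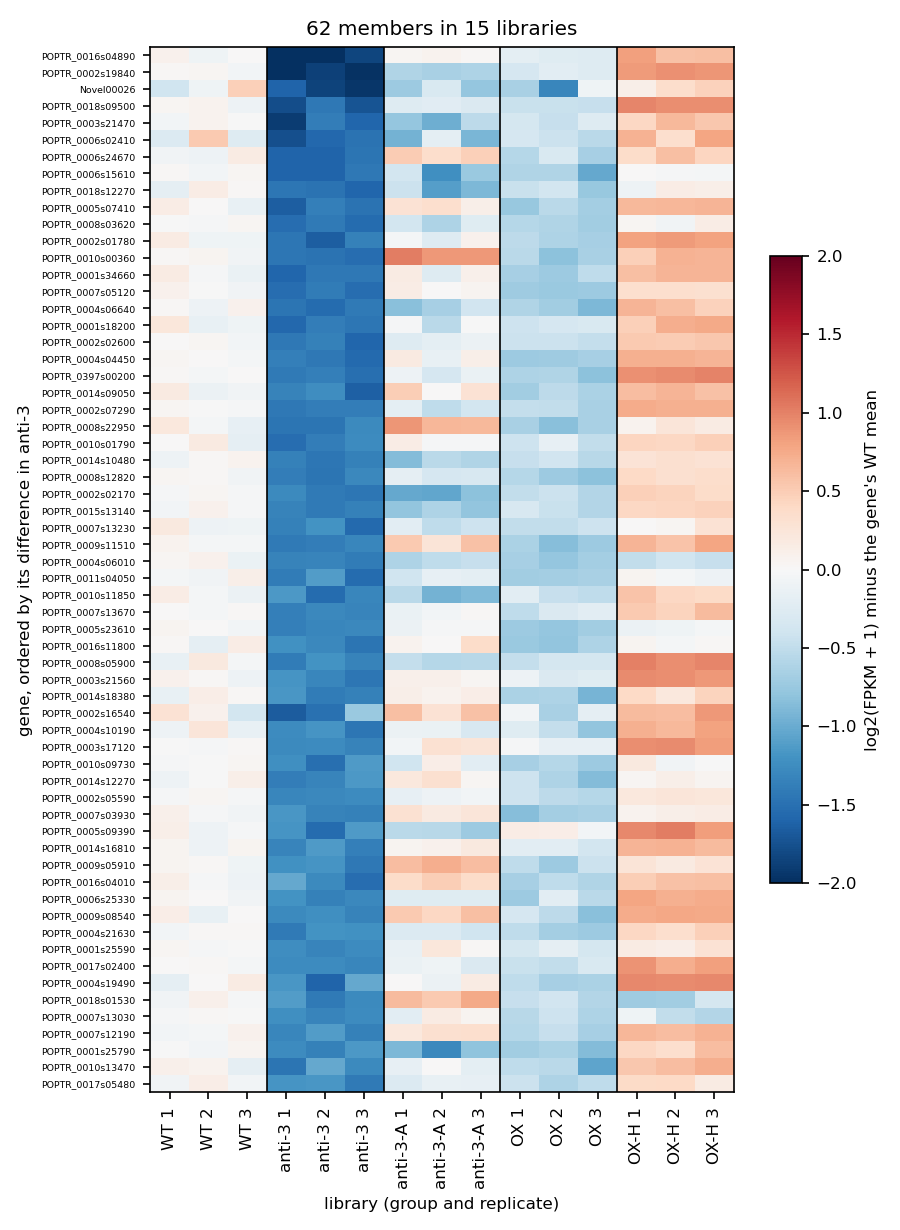
Each row is 1 of the 62 members and each column is 1 of the 15 libraries, with colour for log2(FPKM + 1) minus the gene's WT mean (blue is lower, red is higher). The *anti-3* columns are the darkest blue, the *OX* columns are paler blue in 61 of the 62 rows by group mean, and the *OX*-H columns are red in 56 rows by group mean.

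The members were not low in *anti-3* alone. In *OX*, the limit of 0.75 let in genes that were lower than WT on average, and 61 of the 62 members were. The members' median difference from WT in *OX* was -0.55 (range -0.74 to 0.08), equal to a median level of 65.3% of the WT FPKM (54.0% to 106%). For 58 members every *OX* library lay below every WT library, as in 47.4% of the genes tested, and the adjusted p from limma was below 0.05 for 58, with 46.7% of all genes tested called lowered at this threshold. With library medians aligned the count was 47. The rule used this contrast, so that the count is a description. The members are therefore called here genes that fell in *anti-3* by more than they differed from WT in *OX*. This also holds for genes that the rule left out, such as POPTR_0014s08130, at -3.90 in *anti-3* and -2.38 in *OX*. Of the other 1125 lowered genes tested, 346 (30.8%) were higher in *OX* than in *anti-3* (limma adjusted p below 0.05), against 34.8% of all genes tested.

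Among the 1188 genes below -1.25 in *anti-3*, 1037 had a difference in *OX* of -0.75 or lower and 13 of 0.75 or higher, which left 138 within the limit. Of these 138, 25 were too low in *anti-3*-A, 62 were too high in *OX*-H and 4 were too low there, some of them on more than 1 count. The distribution had no gap at the limit. Of the 745 genes that met the other limits, 70 had a difference in *OX* between -1 and -0.75, 37 between -0.75 and -0.5, 21 between -0.5 and -0.25, and 5 from -0.25 to 0.25, with a median of -1.49 over the 745. Of the 1126 lowered genes that were not members, 34 were above WT in *OX*.

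**Figure D2:**
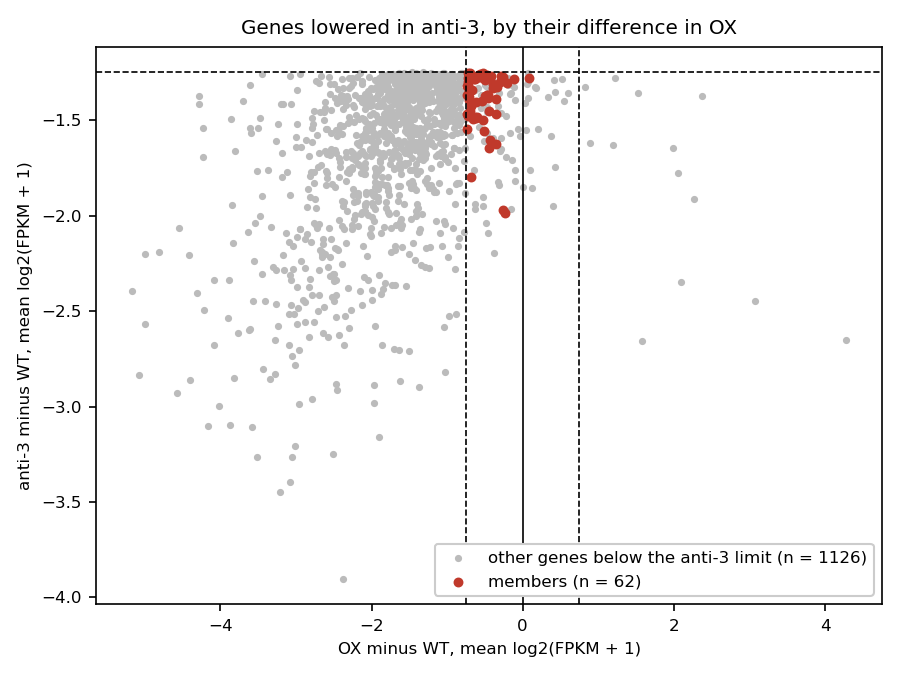
Each point is 1 of the 1188 genes below -1.25 in *anti-3*, with its difference from WT in *OX* on the horizontal axis and in *anti-3* on the vertical axis, both in mean log2(FPKM + 1). Dashed lines mark the limits of -1.25 for *anti-3* and of 0.75 on either side of WT for *OX*, and the 62 members, in red, lie between -0.74 and 0.08 on the horizontal axis, among other genes and with no gap from those beyond the lower *OX* limit.

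The values next to each limit were close together. In *anti-3*, the nearest member was at -1.252 (POPTR_0017s05480) and the nearest gene outside was at -1.249. In *OX*, the nearest member was at -0.741 (POPTR_0006s15610) and the nearest gene outside at -0.757. In *anti-3*-A the corresponding values were -0.998 (POPTR_0001s25790) and -1.13. In *OX*-H, the nearest member was at 0.968 (POPTR_0008s05900), and the nearest gene outside, at 1.006, was POPTR_0006s02390, a UDP-glycosyltransferase gene. UDP-glycosyltransferases attach a sugar to small molecules, among them plant hormones.

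In *anti-3*, the members stood at a median of 34.6% of their WT FPKM (17.0% to 40.8%). The median difference was -1.35 (interquartile range -1.47 to -1.28, lowest -1.99), against -0.26 over all genes tested. Every *anti-3* library was below every WT library for all 62 members, which was so for 52.6% of the genes tested. The thresholds for a DEG were those in the methods of the paper, an adjusted p under 0.001 and a log2 fold change of more than 1.5 in size. The results of the paper name a fold change of 1.5 instead. The paper used DEGseq on normalized read counts, whereas the thresholds were applied here to the limma fit. On that fit, 9 members were DEGs, with 2.60% of all genes tested called lowered. The members' count was 15 without *anti-3* replicate 2, 3 with library medians aligned and 35 with voom on whole reads worked back from the FPKM values. The rule chose the members on this contrast, and nothing is read from these counts.

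The members covered a wide range of expression. Mean FPKM in WT ran from 3.30 to 3535 with a median of 16.8, compared with 20.4 in the other lowered genes that were tested and 8.71 over all genes tested. There were 17 members under an FPKM of 10, 40 from 10 to under 100, and 5 of 100 or more. The median difference in *anti-3* was -1.30, -1.36 and -1.45 in these classes, in that order. The log2(FPKM + 1) scale understates the change of low genes, so nothing is read from this order. The sum of the members' mean FPKM was 7782 in WT, 2837 in *anti-3*, 5091 in *OX*, 6346 in *anti-3*-A and 11560 in *OX*-H, and was carried mainly by 3 abundant genes.

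The identifiers gave little information on function. Of the 62, 61 had POPTR identifiers with 17 different scaffold numbers, at most 7 members on 1 number, and the remaining 1 had no POPTR identifier. The median gene length was 1262 bp (318 to 3812), close to the 1257 bp of the other lowered genes and below the 1395 bp of all genes tested. Only 1 member carried a Gene Ontology term in the lists of the study, and 61 carried none there. Of the 1188 genes below the *anti-3* limit, 268 carried a term. The 27 lists examined hold only genes that the study called lowered in *anti-3*, and 26 of them held no member. Among the 62 members, 53 had a difference in *anti-3* of -1.5 or higher on the log2(FPKM + 1) scale, whereas the study used read counts. Whether the study called the 61 members without a term was not examined here. Since the lists hold only called genes, absence from them does not show that a gene lacks an annotation.

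The member with terms in these lists was POPTR_0006s02410, which carried 28. Among them were the response to jasmonic acid, jasmonic acid mediated signaling and transcription factor binding, and the others are not described here. Jasmonic acid is a hormone made from membrane lipids that acts in defence, wounding and senescence, and its signaling works through repressor proteins that bind transcription factors. The FPKM of POPTR_0006s02410 was 3.47, 6.73 and 3.53 in the WT libraries and 0.590, 0.808 and 0.932 in the *anti-3* libraries. It was 1.80, 3.70 and 1.87 in *anti-3*-A and 3.28, 2.99 and 2.71 in *OX*. In *OX*-H it was 7.76, 5.83 and 8.32. The *anti-3* libraries lay below those of all other groups, the *OX*-H libraries lay above the *OX* libraries without overlap, and WT overlapped with *anti-3*-A and *OX*-H. The gene was short (363 bp) and rested on few reads, 16 in the 3 *anti-3* libraries together and 102 in WT. Its rise in *OX*-H against *OX* was 1.05 ± 0.22 on the log2 scale (SE, limma adjusted p = 0.00043). The rule used both groups, so this p-value is a description, and 43.3% of all genes tested were called raised in the same comparison.

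The list of the response to jasmonic acid held 5 genes, chosen by the study from genes that changed in these libraries, so that its direction is not independent evidence. The median difference of the 5 genes in *anti-3* was -1.61, and all 5 had an adjusted p below 0.05. The other 4 were not members for different reasons. POPTR_0004s08890, POPTR_0008s13090 and POPTR_0010s12080 were at -1.59, -1.70 and -1.86 in *anti-3* and at -1.47, -1.73 and -1.48 in *OX*, outside the limit there. POPTR_0005s14540 was at -0.91 in *anti-3*, above the limit, from a WT FPKM of 1.26. POPTR_0006s02410 had the difference in *OX* nearest to WT of the 5, at -0.44, and had the highest in *OX*-H, at 0.61, where the others were at -0.51 to 0.02. The rule used the values in both groups, and nothing is read from this ranking.

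Members with no term in the lists of the study made up the rest. The largest fall in *anti-3* was that of POPTR_0016s04890, with FPKM of 11.1, 9.72 and 10.5 in WT and 1.73, 1.74 and 2.19 in *anti-3*. The *anti-3*-A libraries, at 10.7, 11.0 and 10.6, lay inside the WT range, and the *OX* libraries were at 9.02, 8.63 and 8.55, below WT without overlap. In *OX*-H it was at 19.3, 16.1 and 16.3, above every other library. POPTR_0002s19840 had the next largest fall on the same log2 scale, with FPKM of 26.1, 26.4 and 24.6 in WT and 5.37, 6.36 and 5.76 in *anti-3*. Its *anti-3*-A libraries, at 16.6, 16.1 and 16.3, lay between *anti-3* and *OX*, which was at 20.2, 22.1 and 21.4, and its *OX*-H libraries were highest, at 47.4, 49.1 and 48.1. None of its 5 groups overlapped.

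The next 3 genes were singled out after their values were seen. POPTR_0002s07290 was the most abundant member, with a mean FPKM of 3535 ± 70.2 in WT (SD, n = 3) and 1339 ± 20.8 in *anti-3*. It was at 2776 ± 297 in *anti-3*-A, 2434 ± 157 in *OX* and 5831 ± 44.7 in *OX*-H, where *OX* and *anti-3*-A overlapped and the other groups did not. POPTR_0004s04450 was also abundant, with 1437 ± 39.4 in WT, 525.5 ± 36.7 in *anti-3*, 1494 ± 178 in *anti-3*-A, 882 ± 20.6 in *OX* and 2325 ± 25.0 in *OX*-H. POPTR_0005s09390 was the 1 member with a mean above that of WT in *OX*, at 19.46, 19.18 and 16.84 against 18.96, 16.26 and 17.21 in WT, which overlapped.

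**Figure D3:**
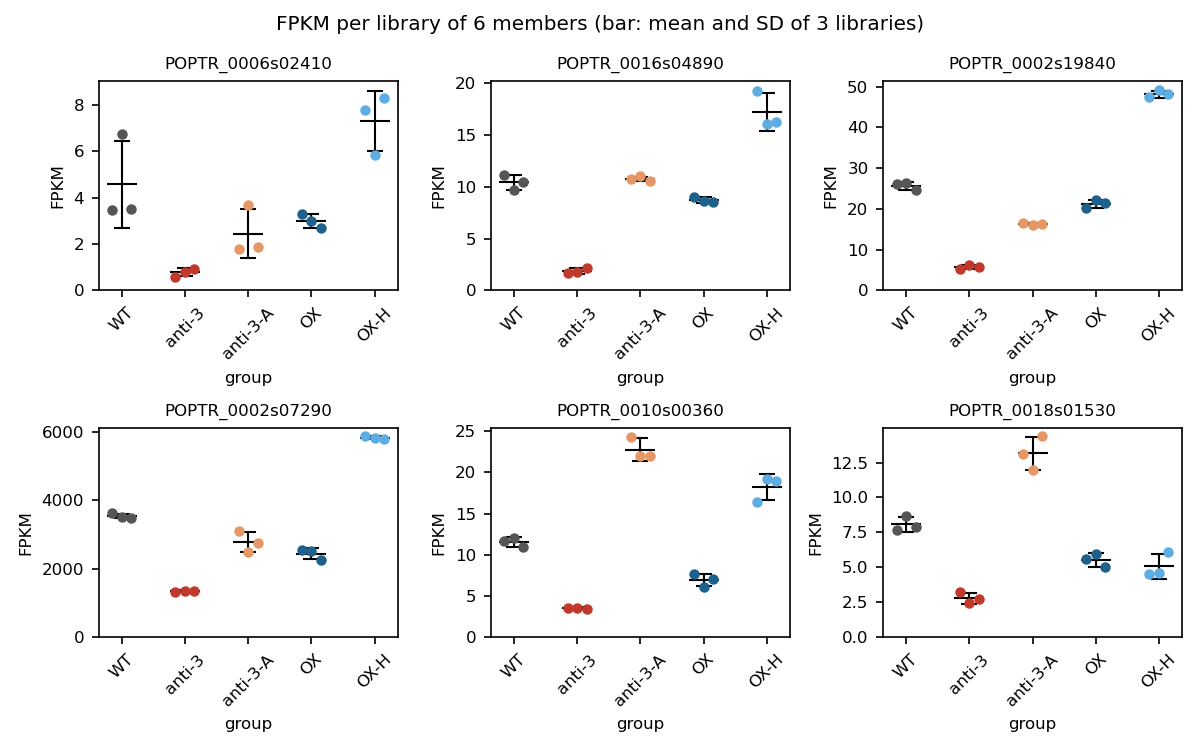
FPKM of 6 members in each library (points) by group, on linear axes that start at 0, with the mean and SD of 3 libraries as black bars. *anti-3* is lowest in all 6 panels, *OX*-H is highest in 4 of them, and *anti-3*-A is highest for POPTR_0010s00360 and POPTR_0018s01530.

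The rule left nothing to test in *anti-3*-A against *anti-3*, and the values are a description. Since a member had to be below -1.25 in *anti-3* and within 1 in *anti-3*-A, the rule alone set a rise of at least 0.25 for every member. All 62 had an adjusted p below 0.05 (limma), with 51.8% of the genes tested called raised in this comparison, and 16 members were DEGs, with 2.73% of the genes tested called. The rise had a median of 1.27, and the other 1125 lowered genes that were tested had a median of 1.40, with 1059 of them (94.1%) raised at the same threshold. The smallest rise of a member, in POPTR_0001s25790, was 0.26 ± 0.11 (SE, adjusted p = 0.040). The call of this gene alone was not stable: its adjusted p was 0.058 to 0.60 in 9 of the alternatives, among them those without *anti-3* replicate 1 (0.082) or 2 (0.14) and without *anti-3*-A replicate 1 (0.13) or 3 (0.20).

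Set against WT, the members returned to different extents. Their median level in *anti-3*-A was 92.1% of WT (46.2% to 197%), with 27 members above WT and the median share of the log2 fall that was regained at 91.1% (20.5% to 162%). In 12 members every *anti-3*-A library was above every WT library, as in 25.9% of the genes tested, and in 26 every one was below, as in 22.5% of the genes tested. The rule bounded these differences on both sides. The highest was in POPTR_0010s00360, at 24.3, 21.9 and 22.0 in *anti-3*-A against 11.70, 11.98 and 10.91 in WT and 3.58, 3.52 and 3.34 in *anti-3*, with no overlap between these groups. At the other end, POPTR_0001s25790 was at 25.1, 19.1 and 26.9 in *anti-3*-A, 47.8, 45.9 and 50.0 in WT and 19.3, 18.1 and 21.1 in *anti-3*, so that the treated and untreated line overlapped.

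The rule did not fix the direction of *OX*-H against *OX*, but it left more room for a rise. Its limits on the 2 groups allowed a change of up to 1.75 in either direction. The members, however, had a median of -0.55 in *OX*, and 61 of them were below WT there. With *OX*-H held within 1 of WT, these 61 could rise by more than they could fall. The limits also used the same libraries, so the comparison is not independent of the choice of members and the counts are a description. In this comparison 60 of the 62 members rose and 0 fell at an adjusted p below 0.05 (limma, and likewise 60 and 0 at an unadjusted p below 0.05), with 43.3% of all genes tested called raised and 28.9% called lowered. Voom on the whole reads worked back also gave 60 and 0. The members' median change was 1.00 (interquartile range 0.79 to 1.24, range -0.11 to 1.63), against 0.14 over all genes tested. By FPKM, the members stood in *OX*-H at a median of 211% of *OX* (91.8% to 346%). For 60 members every *OX*-H library was above every *OX* library, which held for 44.0% of the genes tested.

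This rise was shared with the genes the rule excluded. Of the other 1125 lowered genes that were tested, 1049 (93.2%) rose in *OX*-H against *OX*, with a median of 1.27. Most of them started lower in *OX*, and the rule capped the members' change. The comparison thus showed nothing particular to the members.

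The 2 members that did not pass were POPTR_0018s01530, with a change of -0.11 ± 0.11 (SE, adjusted p = 0.38), and POPTR_0007s13030, with 0.14 ± 0.12 (adjusted p = 0.28). POPTR_0018s01530 was at 5.58, 5.95 and 5.02 in *OX* and 4.51, 4.60 and 6.07 in *OX*-H, which overlapped, and all 6 values were below the WT values of 7.64, 8.68 and 7.88. The same gene was above WT in *anti-3*-A, at 13.10, 11.99 and 14.38, without overlap. POPTR_0007s13030 was at 6.84, 7.55 and 6.45 in *OX* and 9.82, 7.12 and 6.67 in *OX*-H, which also overlapped. The largest rise was in POPTR_0397s00200, at 1.63 ± 0.07 (SE), from a mean FPKM of 76.7 in *OX* to 238.9 in *OX*-H. This gene was picked for its rank in the same comparison, and the rule used both groups, so the value is a description.

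**Figure D4:**
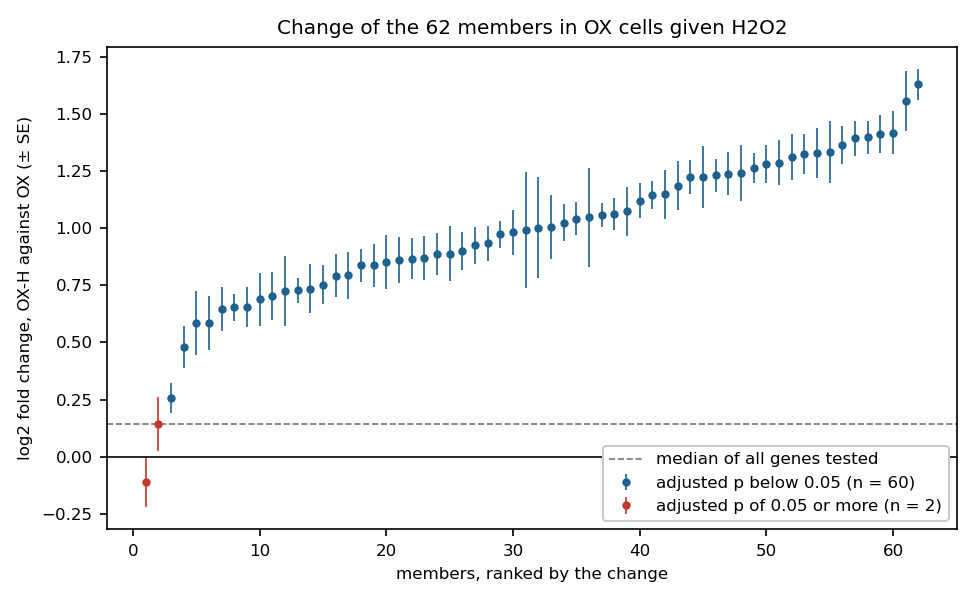
The 62 members ranked by their log2 fold change in *OX*-H against *OX*, with the SE of the limma fit as bars. The 60 members in blue have an adjusted p below 0.05 and lie above the dashed median of all genes tested (0.14), and the 2 in red do not pass.

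Against WT, the members in *OX*-H were mostly above the wild type. Of the 62, 56 had a higher mean, at a median of 146% of the WT FPKM (62.7% to 207%), and the median difference was 0.53. At an adjusted p below 0.05, 46 members were above WT, with 29.3% of genes tested called raised, and 3 were below it, with 40.9% called lowered. The limit of 1 bounded these values, and 62 of the 138 genes near WT in *OX* were left out because *OX*-H exceeded it. The 3 members below WT were POPTR_0018s01530, POPTR_0007s13030 and POPTR_0004s06010, at -0.59, -0.39 and -0.45.

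Ordered by group mean, *anti-3* was lowest in all 62 members, as the rule required. The next lowest was *OX* in 49 members, *anti-3*-A in 12 and *OX*-H in 1. The highest group was *OX*-H in 50 members, *anti-3*-A in 8 and WT in 4. In 57 members the libraries of *anti-3*, *OX* and WT followed in that order with no overlap, as in 8.21% of the genes tested, and in 42 the *OX*-H libraries then lay above those of WT, as in 3.52%. The limits of the rule favour this order, and nothing is read from these counts. These comparisons share the WT libraries and the choice of members.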

How the data were processed

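The authors filtered the reads and mapped them to *P. trichocarpa* genes, with SOAP2 according to the paper, while the submitters' processing notes name Bowtie2 2.2.3, TopHat2 2.0.12 and HTSeq 0.6.1. The authors deposited FPKM values for each gene and library, a unit that the paper names RPKM. Their tables of DEGs against WT hold group means, log2 ratios and p-values and were not used here.

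limma 3.58.1 (R 4.3.3) with a trend was fitted to log2(FPKM + 1) of all 15 libraries, a mean per group and no further scaling, for genes that reached an FPKM of 1 in 3 or more libraries. A fold change on this scale understates the change of low genes. p-values were adjusted by Benjamini-Hochberg within each comparison over 24694 genes. Whole reads were worked back from the steps between FPKM values (445124 values above 0, 100.0% whole within a tolerance of 0.001 of the reads) with Python 3.11.15 and used for depth and for voom. The lengths were chosen to give whole reads and the tolerance widens with the reads, so that this share is no test of them. A gene with few reads carries a large counting error. Both steps were tested on simulated data. Replicates differed by more than sampling noise (chi-square per degree of freedom 2.28 to 6.77).

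The members and gene lists were chosen with earlier results of these data known. Genes named are the member with a term in the lists of the study, the 2 members without one that fell most, and those beside each limit. The others were singled out after their values were seen. The alternatives are given in the closing section. Sequences were not used here, and 0 features matched the reference gene table of *P. tomentosa*.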

Additional observations from a re-analysis of the deposited data

How the results depend on the processing

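The choice of members depended on the scale. The limits gave 62 genes here, 220 with a pseudocount of 0.1 (52 of the 62 kept), 97 with 0.5 (55 kept), 33 with library medians aligned (18 kept), 28 with quantile normalization (20 kept), and 58 to 69 without 1 replicate. Of the 62, 50 to 62 were kept without 1 replicate, with 51, 50 and 50 kept without WT replicate 1, 2 or 3 and 52 without *anti-3* replicate 2 or 3. The members' median difference in *anti-3*, -1.35, was -1.52 with a pseudocount of 0.1, -1.45 with 0.5, -1.17 with medians aligned, -1.20 with quantile normalization and -1.385 to -1.339 without 1 replicate. The median in *OX* was -0.395 with medians aligned and -0.465 with quantile normalization, where 47 and 52 members were lowered instead of 58, and that in *OX*-H against WT was 0.63 with medians aligned. The 9 DEGs in *anti-3* became 33 with a pseudocount of 0.1, 20 with 0.5, 3 with medians aligned, 35 with voom, 62 at an adjusted p below 0.05 and 9 to 15 without 1 replicate, the 15 without *anti-3* replicate 2. Under the DEG rule, 16 members were raised in *anti-3*-A against *anti-3* and 2 in *OX*-H against *OX*. The cause of these shifts was not tested. The 60 rises and 0 falls in *OX*-H against *OX* were the counts with medians aligned, with quantile normalization, with voom and without any 1 replicate. For the 7 members named by the rule, the direction in *anti-3* against WT and in *OX*-H against *OX* and the side of an adjusted p of 0.05 were the same in all 350 values under alternatives. That does not cover *anti-3*-A against *anti-3*, where POPTR_0001s25790 had an adjusted p of 0.058 to 0.60 in 9 alternatives, nor the limits of the rule, since with medians aligned POPTR_0017s05480 was at -1.07 in *anti-3*. The replicate numbers did not pair the libraries (the deviations of same-numbered libraries correlated at -0.065 to 0.055), and with the replicate number as a block the counts were 9, 62, 60 and 0, as without it. Differences in members with few reads, 3 of which had under 20 reads in a library, are limited by depth.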
